A study of Homo sapiens with 2 samples.

Results

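Among the small barcodes of 2 single-cell RNA libraries, 682 held collagen messenger RNA at a level far above that of their neighbours: 307 in a control library and 375 in a GANAB knockdown library. Both libraries were made from UMUC3, a human bladder carcinoma cell line, grown for 14 days in the bladders of C57 nude mice, a strain that lacks a thymus and so most T cells but keeps the stroma, vessels and other host cells of the bladder. The cells of the first library are labelled as control. In the second the cells had GANAB knocked down. Its product is the catalytic subunit of glucosidase II, which removes glucose from young N-glycans in the endoplasmic reticulum. Neither the means of the knockdown nor the number of mice nor the gate of the cell sort is given in the sources used here.

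A 10x library tags the RNA of each droplet with a barcode and each molecule with a unique molecular identifier (UMI), so that a UMI stands for 1 captured RNA molecule. The collagen-rich barcodes were chosen by 4 limits: 1000 to under 13000 UMIs, at least 200 genes, at most 20% of UMIs from mitochondrially encoded genes, and at least 0.5% of UMIs from COL1A1, COL1A2 and COL3A1 together. The first 3 limits were met by 2944 control and 2934 knockdown barcodes. The collagen-rich ones were thus 10.4% of this size range in the control library (exact Clopper-Pearson 95% interval 9.35 to 11.6) and 12.8% in the knockdown library (11.6 to 14.0). That order depended on the size limit: from 2000 UMIs up the shares were 12.6% and 7.36%. There is 1 library per group, so no difference between them has a replicate check and none was tested, and every interval covers counting error only.

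Fibroblasts are the cells that lay down the fibrous matrix of connective tissue. They secrete type I and type III procollagen, whose chains are folded with the help of dedicated chaperones, cut to size outside the cell and assembled into fibrils with fibulins, fibrillin and fibronectin. In the bladder they lie beneath the urothelium and between the bundles of smooth muscle, and they also secrete modulators of the Wnt, BMP and Hedgehog pathways that act on neighbouring cells. All gene names in the deposited files are human, and no source used here states if the reference also held mouse genes. RNA of host cells can appear in such files where a mouse read resembles the human gene. A level below is therefore the part of a gene's RNA that was counted under the human name, and levels were compared between barcodes, not between genes.

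The collagen-rich barcodes were small. They had a median of 2465 UMIs and 732 genes in the control library and of 1598 UMIs and 580 genes in the knockdown library, with 1012 to 8777 and 1009 to 9315 UMIs. All of them together held 0.357% and 0.443% of the 239857346 and 155064055 UMIs of the libraries, most of which lay in 4488 control and 2781 knockdown barcodes of 13000 or more UMIs. The mitochondrial share had a median of 0.140% and 0.0959% in the collagen-rich barcodes, beside 1.49% and 0.908% in those large barcodes. It was also low in the other barcodes of the size range, at 0.261% and 0.259%. In those of them under 2% of a gene index described below it was 0.132% and 0.0605%. A low share was thus not particular to the collagen-rich barcodes. No collagen-rich barcode sequence was found in both libraries, and 1 knockdown sequence also named a barcode of at least 1000 UMIs in the control library. No doublet caller was run, so barcodes that joined 2 cells were not removed.

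The values that chose the barcodes were widely spread and are given as a description. The 3 collagens took a median of 2.59% of UMIs in the control and 2.83% in the knockdown barcodes, and at most 10.5% and 13.6%. At least 1% was reached by 270 of 307 and 335 of 375. Few barcodes lay near the limit. Between 0.5% and 0.6% there were 9 control and 8 knockdown barcodes, the lowest at 0.501% and 0.532%, and between 0.4% and 0.5% there were 4 and 14, the highest at 0.473% and 0.499%. Of the other barcodes in the size range, 2438 of 2637 and 2245 of 2559 held no UMI of the 3 genes. Summed over barcodes and divided by the total to give counts per 1000000 UMIs (CPM), COL1A1 (ENSG00000108821; GRCh38 chromosome 17, 50183289 to 50201632) stood at 11886 and 15675 in the control and knockdown barcodes. COL1A2 (chromosome 7, 94394561 to 94431232) stood at 7757 and 11038, and COL3A1 (chromosome 2, 188974320 to 189012746) at 8734 and 7427.

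Other genes of fibroblasts went with the collagens in nearly every one of these barcodes. A list of 23 further fibroblast markers took a median of 0.837% of UMIs in the control and 0.890% in the knockdown collagen-rich barcodes, against a median of 0 in the other barcodes of the size range. No control and 2 knockdown collagen-rich barcodes held none of the 23. Among the other barcodes, 9 control and 50 knockdown ones reached the 5th percentile of the collagen-rich barcodes, and 5 and 20 of these held at least 0.25% collagen, just under the limit. Within the collagen-rich barcodes the 2 shares went together only loosely: Pearson's r was 0.349 over 307 control barcodes and 0.0954 over 375 knockdown barcodes. Both are shares of the same barcode's UMIs.

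**Figure D1:**
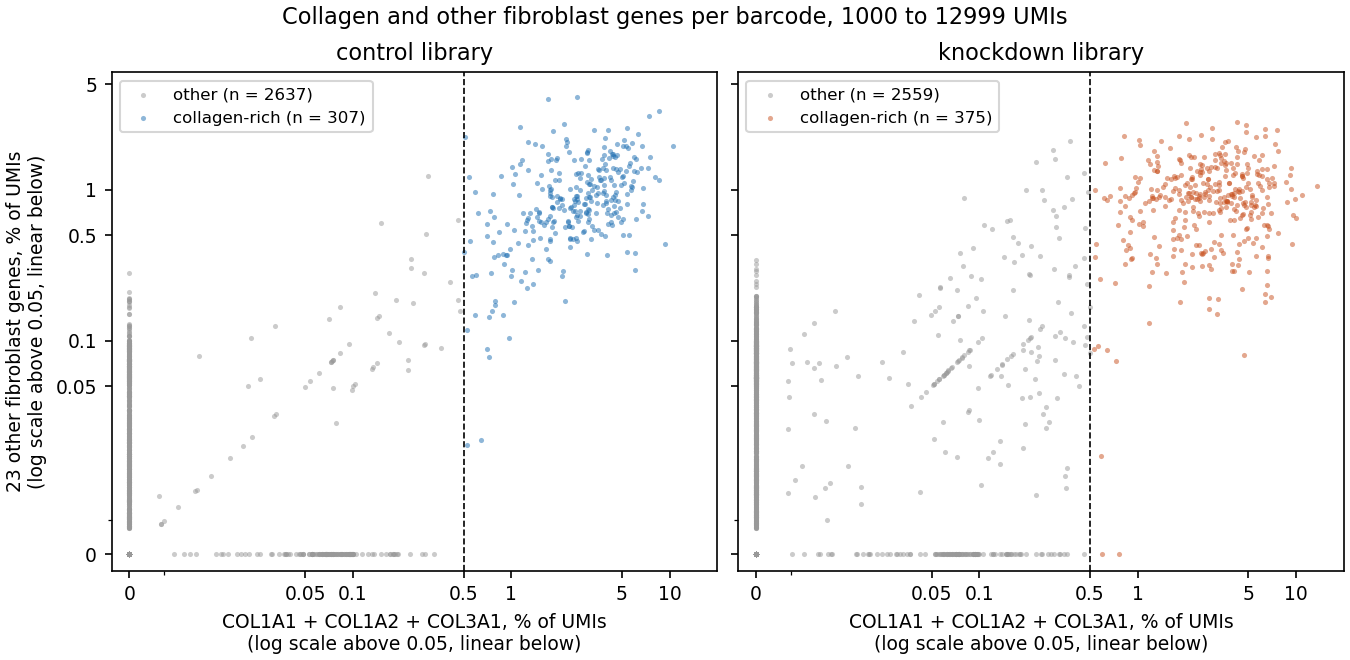
Each point is 1 barcode of 1000 to under 13000 UMIs, with the share of its UMIs from the 3 collagens on the x axis and from 23 other fibroblast genes on the y axis, both in percent on scales that are logarithmic above 0.05 and linear below. Coloured points right of the dashed line at 0.5% are the 307 control and 375 knockdown collagen-rich barcodes, whose median on the y axis is 0.837% and 0.890%, and grey points are the other 2637 and 2559.

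Levels of markers of fibroblasts and of other cells are given next. The label of stroma and its markers SFRP2 and CXCL14 were chosen with earlier results of these data known. The levels of SFRP2 and CXCL14 thus describe the barcodes and are no independent check of the label. SFRP2 (ENSG00000145423; chromosome 4, 153780592 to 153789120), a secreted Wnt modulator of fibroblasts, had 138 CPM in the control (exact Poisson 95% interval 114 to 165) and 170 in the knockdown collagen-rich barcodes (141 to 204), and 0.580 and 1.18 in the other barcodes. CXCL14 (ENSG00000145824; chromosome 5, 135570679 to 135579279), a chemokine made by many stromal and epithelial cells, had 1429 CPM (1350 to 1511) and 1767 (1669 to 1869), and 7.89 and 15.6 in the others. SFRP2 thus stood 238 and 144-fold higher in the collagen-rich barcodes, and CXCL14 181 and 113-fold higher. PDGFRA, the receptor that marks most fibroblasts, had 277 and 300 CPM beside 0.696 and 2.91.

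Not every fibroblast marker was counted. LUM, PI16, MFAP5 and COL15A1 had no UMI in the collagen-rich barcodes of either library, DCN had 0 and 2.91 CPM, and DPT had 12.9 and 13.1. DCN and LUM encode abundant proteoglycans of fibroblast matrix, and neither passed 2.91 CPM in barcodes rich in collagen. Whether mouse reads of these genes can be counted under the human name was not tested.

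Markers of other cell types were nearly absent under their human names. Some were as low in the other small barcodes, with C1QA and TYROBP at 0 and PECAM1 at 0 and 0.108 CPM. Such zeros are therefore not particular to the collagen-rich barcodes. In the other small barcodes of the control and knockdown libraries the endothelial list summed to 101 and 121 CPM and the macrophage list to 62.7 and 47.6. Whether mouse reads of these markers can be counted under the human name was not tested. The 9 pericyte markers summed to 17.5 and 1.46 CPM, with NOTCH3, CSPG4 and MCAM at 0 in both libraries, and the 13 endothelial markers to 12.9 and 24.7, with PECAM1, CDH5 and VWF at 0. The 14 macrophage markers summed to 2.34 and 4.37, with C1QA, LYZ and TYROBP at 0. Neutrophil (5.85 and 13.1), T and NK cell (0 and 16), B cell (0 and 0), erythroid (0 and 1.46), mast cell (1.17 and 0), urothelial (5.85 and 2.91), mesothelial (9.35 and 27.7), Schwann and glial (1.17 and 2.91) and adipocyte lists (4.68 and 7.28) were equally low.

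Smooth muscle was the exception. Its 10 markers summed to 3024 CPM in the control library and 1543 in the knockdown library over the collagen-rich barcodes, beside 267 and 1318 in the other barcodes. Against the other barcodes under 2% of the tumour index described next, which had 1553 and 5331 CPM, the direction turned in the knockdown library, and CNN1 and DES were called lower. Most of this was ACTA2, smooth muscle actin, which myofibroblasts also make, at 2398 and 1070 CPM. MYH11, the myosin that defines smooth muscle, had 22.2 and 16. At least 1% of UMIs came from this list in 15 control and 9 knockdown collagen-rich barcodes. ACTA2 and ACTG2 encode near-identical actins, so their split is uncertain.

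An index of 7 genes was low in the collagen-rich barcodes. It holds RPLP1, RPL41, RPL7A, RPL29, LGALS1, MT2A and MALAT1 and was chosen after the values were seen. All 7 genes were abundant in the large barcodes and low in a distinct population of small ones. Low levels in small barcodes were part of that choice, so the index describes the barcodes and is no measure of tumour RNA. The name tumour index stands for these 7 genes only. The index took a median of 0.288% of UMIs in the control and 0.334% in the knockdown collagen-rich barcodes. It took 5.40% and 5.99% in the other small barcodes, and 4.93% and 6.11% in the large ones. Only 9 control and 18 knockdown collagen-rich barcodes reached 2%, 2.93% and 4.80% of them, while 417 and 567 of the other small barcodes stayed under 2%. Several index genes have near-identical copies in the genome, so their levels are uncertain one by one.

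**Figure D2:**
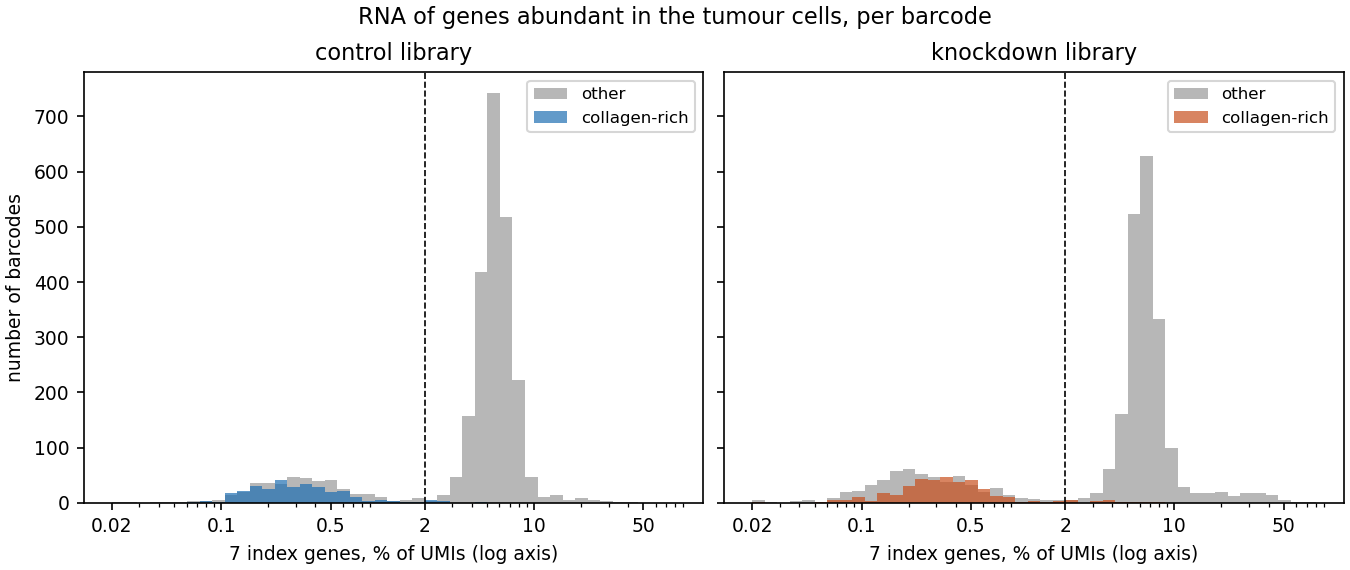
Histograms of the share of UMIs from the 7 index genes (x axis, percent, logarithmic) over barcodes of 1000 to under 13000 UMIs (y axis, number of barcodes), with collagen-rich barcodes coloured, the others grey, and barcodes under 0.02% drawn in the leftmost bin. The dashed line marks 2%, which 9 control and 18 knockdown collagen-rich barcodes reached.

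Genes with no mouse counterpart followed the index. A list of 12 such genes, among them CXCL8, IFI6 and SPANXB1, summed to 28.1 and 119 CPM in the control and knockdown collagen-rich barcodes. The sums were 438 and 1242 in the large barcodes, 31.8 and 41.7 in the other small barcodes under 2% index, and 457 and 971 in barcodes of 10 to 99 UMIs, which hold mostly free RNA. In the knockdown library 768.7 CPM stood in the 18 collagen-rich barcodes with a high index and 60.3 in the remaining 357. GANAB (ENSG00000089597; chromosome 11, 62624826 to 62646726) was counted with 7 UMIs in the control and 3 in the knockdown collagen-rich barcodes. That is 8.18 CPM (3.29 to 16.9) and 4.37 (0.901 to 12.8), beside 126 and 42.2 in the large barcodes. The counting interval of the log2 ratio of knockdown over control reached from -3.49 to 1.22, so a knockdown of GANAB was not detectable in the collagen-rich barcodes at this depth. PRKCSH, the partner subunit of glucosidase II, had 11.7 and 11.6 CPM.

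Each gene was then compared between the collagen-rich and the other barcodes of the size range. A gene was called higher or lower when its CPM differed at least 2-fold, with an exact conditional binomial 95% interval that excluded 1, in the same direction in both libraries, and it counted as measured from 20 CPM up in 1 group or the other. Of 4754 genes measured in both libraries, 915 (19.2%) were called higher and 2207 (46.4%) lower. The median log2 ratio of all measured genes was -1.23 (control) and -0.92 (knockdown), so most genes stood lower. Of the other barcodes, 2220 of 2637 and 1992 of 2559 reached 2% of the tumour index, so the same comparison was made, after the values were seen, with the other barcodes under 2% index alone. Their medians were 0.00 and 0.45, and of 2917 genes 289 (9.91%) were called higher and 105 (3.6%) lower. The barcodes were parted by their collagen, so these ratios describe them and are no test, and genes that pass the 20 CPM limit only through the collagen-rich barcodes had to differ.

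The 22 genes that led this comparison beside the 3 collagens included further collagens, other proteins of the extracellular matrix, secreted signals and transcription factors. They stood 40.4 to 398-fold higher in the control and 30.3 to 191-fold higher in the knockdown library. All 22 were also called higher against the low-index barcodes, by 6.18 to 110-fold and 8.79 to 88.3-fold. FBLN1, a fibulin of elastic fibres and basement membranes, had 4375 and 4076 CPM in the control and knockdown collagen-rich barcodes, beside 22.6 and 51.3 in the others. It was found in 89.3% and 81.1% of collagen-rich barcodes after each was thinned to 1000 UMIs, against 2.43% and 4.10% of the others and 1.29% and 0.503% of the large barcodes. Unthinned, the shares were 94.8% and 87.7%. PDGFRA was found in 26.4% and 26.7% and SFRP2 in 9.12% and 12.8% at the same depth. In the other barcodes the thinned shares were at most 0.508% (PDGFRA) and 0.195% (SFRP2). Of the 23 fibroblast markers 10 were called higher and none lower, beside 19.2% and 46.4% of all genes. Of the remaining markers 1 (COL6A2) was measured but not called, and 12 were not measured in both libraries. Among those called, COL5A2, CXCL14, SFRP1, TCF21, PDGFRA, FBN1 and SFRP2 passed the 20 CPM limit only through the collagen-rich barcodes, so they had to differ. COL5A1 did so in the control library.

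**Figure D3:**
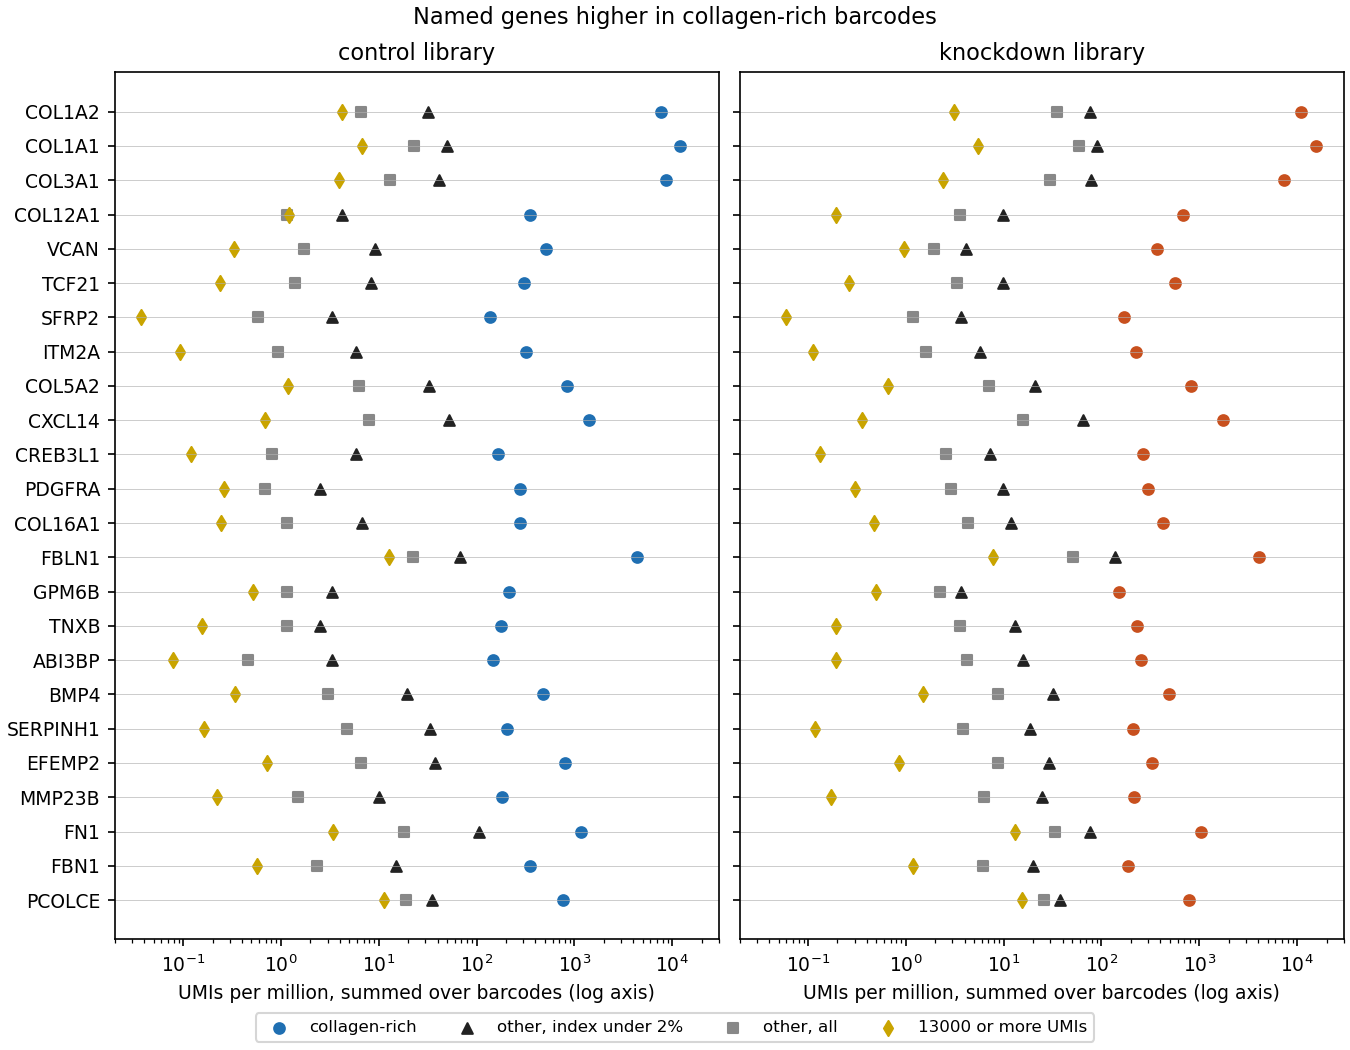
Summed level (x axis, CPM, logarithmic) of 24 of the 25 genes that led as higher in collagen-rich barcodes, the 3 collagens of the rule included, in the control and the knockdown library. Circles are collagen-rich barcodes, triangles other small barcodes with an index under 2%, squares all other small barcodes and diamonds barcodes of 13000 or more UMIs. In every row the circle lies right of the other 3 marks, as for FBLN1 at 4375 and 4076 CPM.

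By role, the fibril-forming collagens came first. COL5A2, which sets the width of collagen fibrils, had 832 and 822 CPM beside 6.26 and 7.10 in the other barcodes, and COL5A1 had 105 and 80.1. Of the 8 fibrillar collagen genes that the rule did not use, these 2 were measured in both libraries and called higher, beside 19.2% of all genes. COL5A2 passed the 20 CPM limit only through the collagen-rich barcodes in both libraries, and COL5A1 in the control library, so there they had to differ. Among the collagens that decorate fibrils, COL12A1 had 355 and 680 CPM and COL16A1 281 and 429, against 1.16 and 3.55 and against 1.16 and 4.30. Of 23 enzymes and chaperones of collagen synthesis 12 were measured, of which 4 were called higher and 6 lower, the latter near the 46.4% of all genes. PCOLCE, which speeds the trimming of procollagen, had 760 and 792 CPM beside 18.8 and 26.1, and the collagen chaperone SERPINH1 had 207 and 210 beside 4.76 and 3.87. P4HB, the protein disulfide isomerase that is also a subunit of prolyl 4-hydroxylase, was lower, at 42.1 and 30.6 beside 122 and 80.7. Against the low-index barcodes 5 of the list were higher and none lower.

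Of 28 elastic fibre and matricellular genes 13 were measured, of which 8 were called higher and 2 lower, beside 19.2% and 46.4% of all genes. VCAN, FBN1, EFEMP2, TNXB and FBLN5 passed the 20 CPM limit only through the collagen-rich barcodes, so they had to differ. FN1 and THBS1 did so in the control library. FN1, fibronectin, had 1171 and 1042 CPM beside 18.3 and 33.8, and VCAN, the proteoglycan versican, had 507 and 368 beside 1.74 and 1.94. FBN1, fibrillin, had 350 and 188 beside 2.32 and 6.13. Of 11 small leucine-rich proteoglycans 3 were measured in both libraries and called higher. All 3 passed the 20 CPM limit only through the collagen-rich barcodes, so they had to differ. BGN, biglycan, had 97.0 and 93.2 CPM beside 0.232 and 1.29. Of 22 matrix proteases and inhibitors 12 were measured, of which 7 were called higher and 5 lower, beside 19.2% and 46.4% of all genes. TIMP2 had 1132 and 1857 CPM beside 181 and 185, and MMP14, a membrane-bound collagenase, 546 and 709 beside 80.1 and 41.3. The inhibitor TIMP1 (40.9 and 34.9 beside 508 and 334) and the protease PLAU (59.6 and 29.1 beside 583 and 223) were lower. No gene of this list was lower against the low-index barcodes.

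Some secreted signals and transcription factors of mesenchyme were higher. Of 22 Wnt and BMP modulators and ligands 8 were measured in both libraries, and all 8 were called higher, beside 19.2% of all genes. BMP4, SFRP1 and FST passed the 20 CPM limit only through the collagen-rich barcodes, so they had to differ. BMP4, a ligand, had 476 and 491 CPM beside 3.02 and 8.72, SFRP1, a Wnt antagonist, 603 and 205 beside 3.36 and 9.25, and FST, which binds activin, 272 and 56.8 beside 1.74 and 3.66. Of 13 measured growth factors and receptors 5 were called higher and 3 lower, beside 19.2% and 46.4% of all genes. IGFBP7, which binds insulin-like growth factors, had 779 and 780 CPM beside 104 and 61.3. Of 22 transcription factors 11 were measured, of which 10 were called higher and none lower, beside 19.2% and 46.4% of all genes. TCF21, PRRX1 and OSR1 also passed the 20 CPM limit only through the collagen-rich barcodes. TCF21, a factor of the developing mesenchyme of visceral organs, had 306 and 571 CPM beside 1.39 and 3.34, and PRRX1 had 229 and 72.8 beside 4.29 and 8.29. OSR1 had 57.3 and 55.3 beside 0.348 and 1.18.

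Immediate early genes, which are switched on within minutes by growth factors or by tissue dissociation, were abundant in the collagen-rich barcodes. The 21 genes summed to 11728 and 17945 CPM in the 2 libraries, beside 3529 and 5611 in the other barcodes and 6140 and 10562 in those under 2% index. FOS had 3019 and 5009 CPM beside 414 and 961, and EGR1 2600.0 and 4071 beside 200 and 355. Of 20 measured genes 9 were called higher and 8 lower, beside 19.2% and 46.4% of all genes. JUNB (60.8 and 106 beside 204 and 258) and DUSP1 (53.8 and 176 beside 412 and 773) were among the lower ones. Against the low-index barcodes 6 were higher and none lower.

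Genes lower in the collagen-rich barcodes were abundant in the large barcodes. The 12 named ones were MALAT1, CLU, NDUFA11, C6orf48, IL13RA2, HLA-B, MYL12B, CD99, GRN, NOP53, CST3 and NDUFA3, which stood 10.8 to 25.7-fold lower in the control and 10.3 to 27.3-fold lower in the knockdown library. None of the 12 was called in either direction against the low-index barcodes, where a call needed the same direction in both libraries. Their levels in the collagen-rich barcodes were 0.381 to 1.51 times (control) and 1.15 to 3.41 times (knockdown) those of the low-index barcodes. In the knockdown library alone CD99, CST3, CLU, GRN and NDUFA3 stood more than 2-fold higher in the collagen-rich barcodes. MALAT1 is itself an index gene, so its level in the low-index barcodes was limited by their choice. IL13RA2, a decoy receptor of interleukin 13 found in many tumours, had 10.5 and 13.1 CPM in the collagen-rich barcodes and 340 and 224 in the large ones. Lists of such genes were lower too. All 11 measured genes of cholesterol synthesis and all 10 of MHC class I presentation were lower, as were 8 of 11 S phase and 10 of 13 G2 and M phase genes, beside 46.4% of all genes. Against the low-index barcodes only 1, 6, 2 and 3 genes of these lists were measured, and none of those was called. Of 12 markers listed for UMUC3, 10 were lower and S100A6, a small calcium-binding protein also made by fibroblasts, was higher at 12337 and 13222 CPM beside 3003 and 5444. Against the low-index barcodes S100A6 was not called.

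Some of the 105 genes lower even against low-index barcodes are named here. The examples here were chosen after their values were seen. AIF1, from the macrophage list, had 0 CPM in the collagen-rich barcodes of both libraries and 253 and 102 in the low-index ones. It made up most of that list there, which summed to 277 and 107 CPM. C1QA, C1QB, C1QC, CD14 and TYROBP had 0 CPM in the other small barcodes of both libraries, so AIF1 alone names no cell type. MECOM had 0 and 1.46 beside 132 and 119, and MEF2C 39.7 and 27.7 beside 466 and 365. TMSB4X, an actin-binding protein, had 2575 and 2077 beside 8710 and 5932.

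Knockdown and control collagen-rich barcodes were then compared with each other by the same size rule. Of 3275 genes measured in the collagen-rich barcodes, 247 (7.54%) were higher and 107 (3.27%) lower in the knockdown library. In the other small barcodes 192 of 5125 (3.75%) were higher and 127 (2.48%) lower, and in the large barcodes 140 of 5543 (2.53%) and 122 (2.2%). The median log2 ratio was 0.10 in the collagen-rich, -0.04 in the other small and -0.08 in the large barcodes. The collagen-rich groups held the fewest UMIs, 855373 and 686973 in all, so that a level of 20 CPM rests there on fewer than 20 UMIs, and the percentages are not of equal precision. From 2000 UMIs up, 466 genes were higher in the knockdown library.

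Many genes that set the collagen-rich barcodes apart stood close in both libraries. COL5A2, FBLN1, PDGFRA, BMP4, SERPINH1 and PCOLCE had log2 ratios of -0.02, -0.10, 0.11, 0.04, 0.02 and 0.06. Of the 12 genes measured from the list of 23, GSN was called higher, SFRP1 lower together with LOXL1, and 9 were not called. Of 12 measured Wnt and BMP modulators 3 were higher and 4 lower in the knockdown library. Of 13 growth factors and receptors 1 was higher and 4 lower. Over all genes measured in the collagen-rich barcodes the shares were 7.54% higher and 3.27% lower.

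Among genes of at least 100 CPM in the knockdown collagen-rich barcodes, the 12 largest ratios in favour of that library were led by KCNK2, HHIP and CA3. HHIP, a secreted antagonist of Hedgehog ligands, had 63.1 and 543 CPM in the control and knockdown collagen-rich barcodes, a log2 ratio of 3.1 (2.69 to 3.54). With barcodes weighted equally the HHIP ratio was 2.25, and from 2000 UMIs up it was 4.48. In the large barcodes it ran the other way, from 38.1 to 1.24 CPM, a log2 ratio of -4.94. KCNK2, a potassium channel, had 25.7 and 226 CPM, a log2 ratio of 3.13 (2.48 to 3.85), and CA3, a carbonic anhydrase, 39.7 and 320, a ratio of 3.01 (2.48 to 3.58). HHIP was found in 6.19% of control and 22.9% of knockdown collagen-rich barcodes at 1000 UMIs, against 2.69% and 0.156% of the other small barcodes. LSAMP (2.79), ABCA1 (1.89), TXNIP (1.85), ARMH4 (1.79), GSN (1.75), CREBRF (1.71) and PCMTD1 (1.68) followed on the log2 scale. OCIAD2 (1.94) and DUSP1 (1.71) were also abundant in tumour RNA, with 845 and 1125 CPM in the large knockdown barcodes, and without the barcodes of 2% index or more their ratios were 0.77 and 1.11.

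Among genes of at least 100 CPM in the control collagen-rich barcodes, the largest ratios in favour of the control library were those of 12 genes, led by INHBA and COL8A1. INHBA, a subunit of activin A, had 233 and 18.9 CPM in the control and knockdown collagen-rich barcodes, a log2 ratio of -3.62 (-4.55 to -2.81). COL8A1, a network-forming collagen, had 250 and 29.1, a ratio of -3.1 (-3.84 to -2.44), and IGFBP5, which binds insulin-like growth factors, 129 and 21.8, a ratio of -2.56 (-3.44 to -1.77). FST, which binds the product of INHBA, had a ratio of -2.26 (-2.79 to -1.77). IGF1, a growth factor, had 461 and 124 CPM, a ratio of -1.90 (-2.25 to -1.55), and was found in 30.0% and 8.53% of barcodes at 1000 UMIs. PRRX1 had a ratio of -1.65 (-2.13 to -1.20). STMN1, which takes microtubules apart in dividing cells, had 430 and 91.7 CPM, SMC2, a condensin subunit, 111 and 20.4, and TOP2A, a topoisomerase of dividing cells that lay below 100 CPM, 73.7 and 8.73. HIST1H2AL and HIST3H2A had ratios of -2.31 and -1.81 and share reads with near-identical histone genes, so they are uncertain. NT5DC2 (-2.54) and LGI2 (-2.01) completed the 12.

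**Figure D4:**
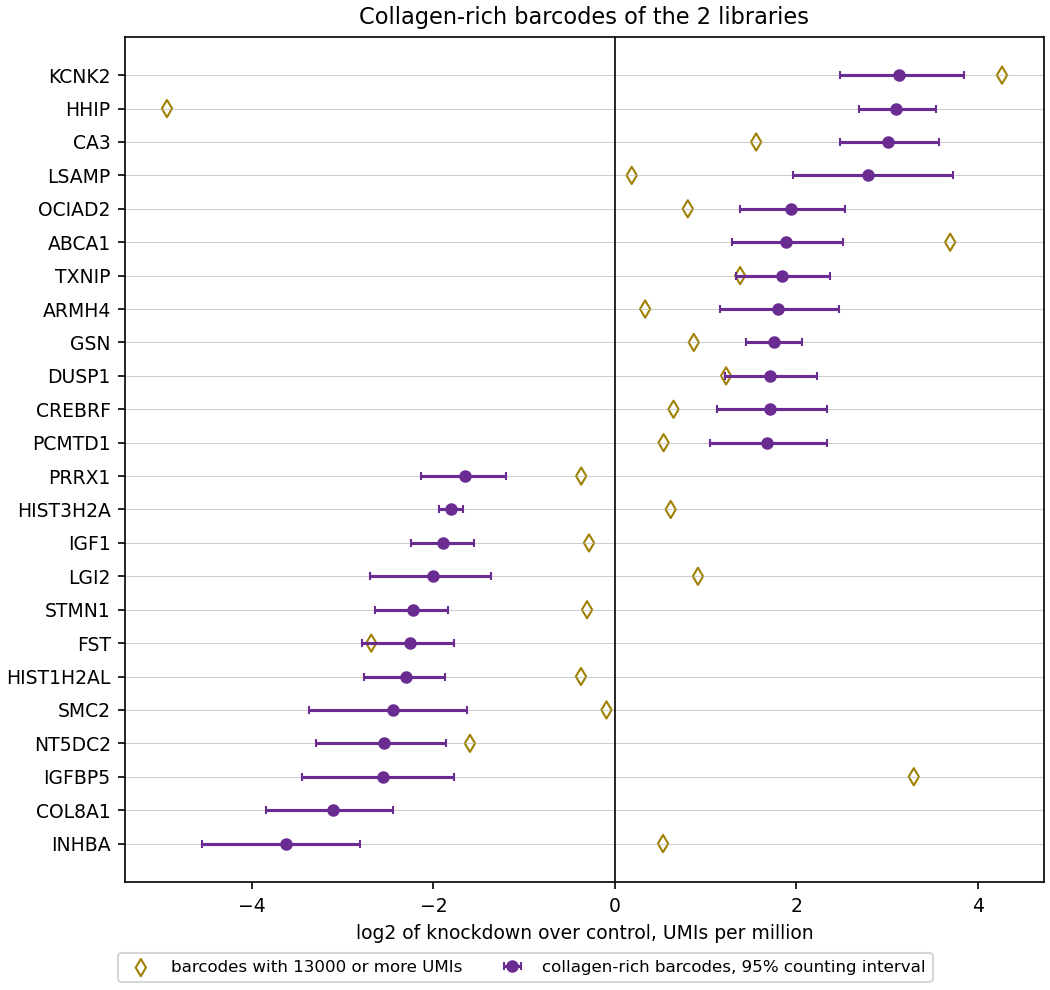
Log2 ratio of knockdown over control (x axis) for the 24 genes of at least 100 CPM that differed most between the collagen-rich barcodes of the libraries, as filled circles with exact 95% counting intervals, and for barcodes of 13000 or more UMIs as open diamonds. HHIP is at 3.1 in the collagen-rich and -4.94 in the large barcodes, and COL8A1 has no diamond because it had no UMI in the large knockdown barcodes. The diamond of KCNK2 rests on 1 UMI in the large control barcodes.

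Lists abundant in tumour RNA did not all move one way between the libraries. Genes of cholesterol synthesis summed to 213 and 115 CPM in the control and knockdown collagen-rich barcodes, of G2 and M phase to 999.6 and 438, of S phase to 227 and 148 and of hypoxia and glycolysis to 1872 and 1610. Type I interferon and MHC class I genes ran the other way. Of 4 measured type I interferon genes 3 were higher, beside 7.54% of all genes. Among them were ISG15 at 12.9 and 90.3 CPM and IFI6, which has no mouse counterpart, at 2.34 and 37.8. The list summed to 71.3 and 317 CPM. In the 9 and 18 barcodes of 2% index or more it summed to 363 and 1677, and in the remaining 298 and 357 to 61.6 and 194. For MHC class I the sums were 375 and 624 over all, and 326 and 359 without those barcodes. Each of these lists moved the same way in the large barcodes, so the directions are not particular to the collagen-rich ones. Type I interferon genes summed there to 861 and 2687 CPM, MHC class I genes to 3134 and 5192 and cholesterol synthesis genes to 1768 and 730. The part of tumour RNA in the differences between the collagen-rich barcodes was not tested.

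The collagen-rich barcodes were not all alike. A pair of 8-gene groups was read from covariation among these barcodes after the values were seen, so what follows is a description. The groups tended to occur in different barcodes in the knockdown library, and far less so in the control library. The first group was met together with the second in 15 knockdown barcodes and without it in 136. In the control library these numbers were 45 and 49. The first holds HHIP, PTCH1, WNT4, DKK2, KCNK2, CA3, COL12A1 and CXCL14. HHIP and PTCH1 are both inhibitors and classical targets of Hedgehog signalling, and WNT4 and DKK2 are a Wnt ligand and a Wnt modulator. The second holds CCDC80, FST, SFRP1, IGF1, PRRX1, FBN1, IGFBP4 and SLIT3, which are mostly secreted matrix and growth factor genes. A barcode was counted for a group when at least 2 of its 8 genes had a UMI after thinning to 1000 UMIs.

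The balance of the groups differed between the libraries. In the control library 49 of 307 collagen-rich barcodes (16%, 12 to 20.5) carried the HHIP group alone and 132 (43.0%, 37.4 to 48.7) the CCDC80 group alone. In the knockdown library 136 of 375 (36.3%, 31.4 to 41.4) carried the HHIP group alone and 95 (25.3%, 21 to 30.1) the CCDC80 group alone. Both groups were met in 45 control (14.7%) and 15 knockdown barcodes (4%), and neither in 81 (26.4%) and 129 (34.4%). Over all collagen-rich barcodes the HHIP group summed to 2470 CPM (control) and 4571 (knockdown), and the CCDC80 group to 3476 and 1294. CXCL14 alone made up 1429 and 1767 CPM of the HHIP group sums. The difference in the HHIP group depended on barcode size. In barcodes of 1000 to under 2000 UMIs, of which there were 119 (control) and 266 (knockdown), the HHIP group had 3170 and 3266 CPM, and from 2000 to under 5000 UMIs, in 164 and 106 barcodes, 2310 and 6695. The CCDC80 group was lower in the knockdown library in both ranges, at 2830 and 1426 and at 3449 and 1162. Without the barcodes of high index the sums were 2526 and 4854, and 3516 and 1378. Genes of both groups are among those named for the difference between libraries, so the counts restate that difference by barcode.

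**Figure D5:**
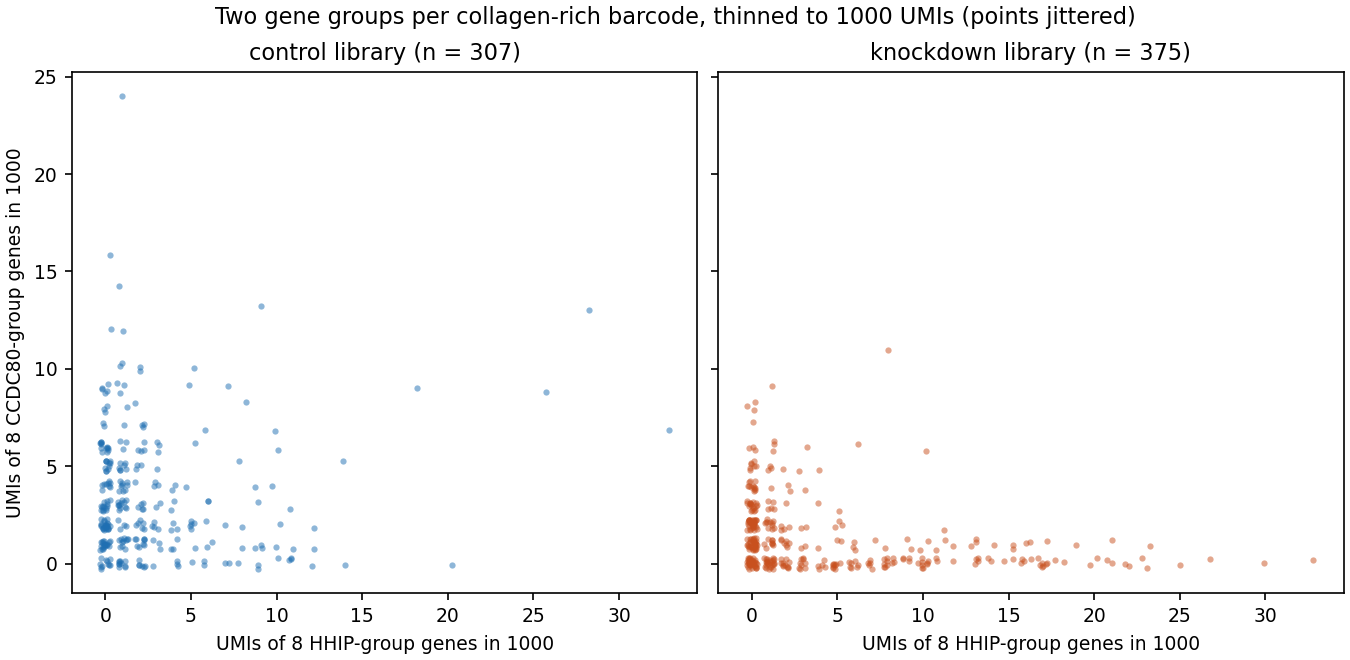
Each point is 1 collagen-rich barcode, with UMIs of the 8 HHIP-group genes on the x axis and of the 8 CCDC80-group genes on the y axis after thinning to 1000 UMIs, jittered by up to 0.3. Knockdown barcodes lie mostly along either axis, with 15 of 375 carrying at least 2 genes of both groups, against 45 of 307 in the control library.

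Other genes differed between barcodes of the groups in the knockdown library. FBLN1 had 1370 CPM in the barcodes with the HHIP group alone and 5796 in those with the CCDC80 group alone, and ACTA2 had 2389 and 206. In the control library the same 2 kinds of barcode had 4160 and 4197 CPM of FBLN1 and 1662 and 2029 of ACTA2, so neither gene parted them there by as much. PDGFRA was counted in both kinds, at 270 and 375 CPM in the knockdown and 436 and 256 in the control library. The collagens of the rule took 4.75% and 2.71% of UMIs in the knockdown and 3.26% and 3.0% in the control library. Median UMI counts were 1918 and 1522 in the knockdown and 1827 and 2772 in the control barcodes of the HHIP and CCDC80 groups.

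Levels also varied with the share of collagen. In the knockdown library CXCL14 had 148 CPM in the 40 barcodes of 0.5 to 1% collagen, 159 in the 80 of 1 to 2%, 2040 in the 182 of 2 to 5% and 3506 in the 73 above. In the control library the bands held 37, 77, 150 and 43 barcodes, with CXCL14 at 1040, 970, 1637 and 1949 CPM. The HHIP group, of which CXCL14 is a part, summed to 419, 775, 5017 and 9303 CPM over the knockdown bands. Over the control bands it summed to 1470, 1651, 2893 and 3502, of which CXCL14 was the larger part in every band. FBLN1 had its lowest level in the lowest control band, 1899 CPM, and in the highest knockdown band, 2662. Smooth muscle markers summed to 9475 CPM in the lowest control band, against 1484 to 3599 in the others, whereas in the knockdown library they summed to 506, 144, 1470 and 3547 CPM from the lowest to the highest band. Index genes summed to 20957 CPM in the lowest knockdown band, against 3554 to 8172 in the others, and to 5162, 4294, 3942 and 3406 over the control bands.

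Collagen was rare in large barcodes. Of 4488 control barcodes of 13000 or more UMIs, 3 held at least 0.5% of the 3 collagens, and of 2781 knockdown barcodes none did, which allows a share of up to 0.108%. The 3 had 19476, 29390 and 34174 UMIs, 1.89%, 0.970% and 0.960% of collagen, 0.158 to 0.313% of the 23 other fibroblast genes and 3.86 to 5.06% of the tumour index. The index had a median of 4.23% in these 3, beside 4.93% in all large control barcodes. In barcodes of 10 to 99 UMIs the 3 collagens took 0.0157% and 0.0174% of UMIs, against 2.84% and 3.41% in the sum of the collagen-rich barcodes.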

How the data were processed

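Droplet 3' RNA libraries (10x Genomics v3 chemistry, 10000 cells loaded per channel, per the labels) of 1 control and 1 GANAB knockdown sample were analysed. The authors deposited raw UMI counts per gene and barcode, made with Cell Ranger 3.1.0 against GRCh38 per the submitters' processing notes. Each matrix lists 6794880 barcodes and 33538 genes, so it had not been restricted to cells. How strand was treated is not stated in the sources used here.

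Barcodes were selected by the 4 limits of the rule, and their counts were summed per group and divided by the group total. Ratios carry exact conditional binomial, levels exact Poisson and shares Clopper-Pearson 95% intervals. For ranking, 0.5 counts were added to each sum. Named genes were the 25 highest and 12 lowest in both libraries and the 12 largest ratios each way between libraries, all from 100 CPM up, plus the markers, GANAB, PRKCSH and up to 4 genes per list of 39. Values of 1 gene that the rule took are not reported here. Mitochondrial genes, clone-based names and ribosomal pseudogenes were left out. Shares of barcodes with a UMI used barcodes thinned to 1000 UMIs. The barcodes and lists were chosen with earlier results of these data known; other genes named in the text, the tumour index and both 8-gene groups were chosen after their values were seen. Positions come from GENCODE release 29. The code (Python 3.11.15, numpy 2.4.6, scipy 1.17.1, pandas 2.3.3) was tested on simulated data.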

Additional observations from a re-analysis of the deposited data

How the results depend on the processing

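With 1 library per group, and human gene names for RNA that may come from mouse cells, the values describe these 2 libraries. No paired analysis was possible because each group has 1 library. The share of collagen-rich barcodes moved with the limits: with 0.25% collagen it was 14.5% in the knockdown library, with 1% collagen 9.17% (control) and 11.4% (knockdown), from 500 UMIs up 7.26% and 11.4%, from 2000 UMIs up 12.6% and 7.36%, and under 5000 UMIs 11.7% and 16.3%. Genes higher in the knockdown than in the control collagen-rich barcodes numbered 524 with 0.25% collagen, 466 from 2000 UMIs up, 117 with a filter at 50 CPM and 445 at a fold of 1.5, against 247. Genes lower numbered 163 with barcodes weighted equally, 61 at 50 CPM, 164 with no filter and 223 at a fold of 1.5, against 107. Against the other barcodes, 917 genes were lower at 50 CPM and 4111 with no filter, against 2207, and against those under 2% tumour index 289 were higher and 105 lower. Growth factors and receptors of fibroblasts called higher numbered 3 at 50 CPM and 8 with no filter, against 5.

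The named lower genes turned against the low-index barcodes, as log2 ratios: in the knockdown library MALAT1 0.25, CLU 1.34, NDUFA11 0.55, C6orf48 0.24, IL13RA2 0.68, HLA-B 0.98, MYL12B 0.65, CD99 1.76, GRN 1.23, NOP53 0.93, CST3 1.48 and NDUFA3 1.01, and in the control library CLU 0.031, CD99 0.59, NOP53 0.15 and NDUFA3 0.31. MALAT1 is itself an index gene. The cause was not tested. These 16 values were the only ones to change sign among 740 for 37 genes over 10 settings that can move a ratio, and 520 stayed within their counting interval. Of 240 ratios between libraries for 24 genes over 10 such settings none changed sign and 220 stayed within that interval. The alternatives that use the tumour index or leave out barcodes rich in smooth muscle genes were chosen after seeing the data. At 855373 and 686973 UMIs in all, depth limits the genes measured in the collagen-rich barcodes.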
